A study of Mus musculus with 7 samples.

Results

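The cytosolic ribosomal protein genes were taken from a table of gene counts as the protein-coding records named after a protein of the large ribosomal subunit (Rpl, Rplp) or of the small one (Rps, Rpsa), leaving out Rpl3. The rule found 85 of 38924 gene records, of which 22572 are protein coding. Of the 85 members, 50 carry large-subunit and 35 small-subunit names, and they lie on 19 chromosomes, with 4 on the X chromosome. A total of 84 had at least 1 count in every library, the exception being Rpl10l, and 83 passed the filter on low counts in each comparison, which left out Rpl10l and Rpl39l.

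The ribosome reads messenger RNA on its small subunit and joins amino acids on its large subunit, and each subunit is ribosomal RNA bound by a set of small basic proteins. These proteins are needed in nearly equal amounts, their genes are among the most strongly transcribed in most tissues, and many of their messenger RNAs start with a run of pyrimidines, the 5' terminal oligopyrimidine (TOP) motif, through which the mTOR kinase and the protein LARP1 control their translation. In neurons ribosomes occur in the cell body and in dendrites, where local protein synthesis supports lasting changes of synapses.

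The libraries hold polyadenylated RNA of hippocampus dissected from adult mice. Wild-type Ammon's horn, the CA fields with their pyramidal cells, gave 3 libraries. Ammon's horn of mice homozygous for a deletion of Khdrbs3 (Tstar in the labels), a regulator of splicing, gave 3 more. The last library came from wild-type dentate gyrus, the region of the granule cells; it is the only one of its group, and the fit gave it the spread of the other 6. All mice, wild types included, are labelled with the colony of the Tstar null allele, bred for 8 generations onto C57Bl6. Nothing in the sources used here says whether each library is a separate animal, so p-values measure the spread between libraries, which may be technical.

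Gene-table totals ran from 50230733 to 67692326 counts per library. Reads of exon bin 2 of Khdrbs3 numbered 808, 1103 and 964 in the wild-type Ammon's horn libraries and 6, 9 and 7 in the knockout libraries. Its other 8 bins kept 0.981 to 1.71 times the wild-type reads, and its whole gene record stood at 134 to 143 CPM (counts scaled by library size) in the wild type and 197 to 203 CPM in the knockout. The granule-cell marker Prox1 was at 210 CPM in the dentate gyrus library and at most 27.9 CPM in the other 6, and the CA1 marker Fibcd1 was at 19.6 CPM there and at least 177 CPM elsewhere. Choroid plexus markers summed to 1161 and 1135 CPM in knockout replicates 1 and 3 and to between 138 and 436 CPM in the other 5 libraries. Replicate numbers here follow the order of the samples and only name them.

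The names of 4 members do not hold in a later annotation. In GENCODE M21 the identifier of the record named Rpl24 belongs to Zbtb11, a zinc-finger gene beside it on chromosome 16, Rps3a2 and Rps3a3 are processed pseudogenes, and Rps4y2 is Rps4l, a transcribed processed pseudogene. The other 81 keep their name and coding type. The record with the M21 identifier of Rpl24 is written RPL24 in the table (chromosome 16, 55966275 to 55971435, mm10), so the name rule passed it by. RPL24 stood at 114, 116 and 111 CPM in wild-type Ammon's horn, 112, 102 and 107 CPM in the knockout libraries and 93.6 CPM in dentate gyrus. Another record, RP24-288C12.6, overlaps it and may share its reads. By contrast the record named Rpl24 lay between 39.1 and 45.0 CPM in all 7 libraries. Counts of members are given over all records of the rule, and again without these 4 where stated.

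Sequences around the annotated start are shown for the members with a RefSeq promoter (build GRCm38.p6) that stood lowest and highest in the dentate gyrus, 5 of each, among members above 5 CPM, because the TOP motif begins at the first transcribed base. Each is 30 bases on the gene's own strand, 15 before the annotated start and 15 from it on, and capitals mark the longest run of a C followed by at least 5 pyrimidines. The first 5 are the lowest and the last 5 the highest, at chr2:180257364-180257393 (Rps21, plus strand), chr10:80292416-80292445 (Rps15, plus), chr1:39367836-39367865 (Rpl31, plus), chr11:68901551-68901580 (Rpl26, plus), chr10:128549154-128549183 (Rpl41, minus), chr9:64173372-64173401 (Rpl4, plus), chr4:152325711-152325740 (Rpl22, plus), chr9:120571502-120571531 (Rpl14, plus), chr7:118116133-118116162 (Rps15a, minus) and chr17:46782642-46782671 (Rpl7l1, minus).
Rps21: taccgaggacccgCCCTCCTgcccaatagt
Rps15: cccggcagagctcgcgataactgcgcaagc
Rpl31: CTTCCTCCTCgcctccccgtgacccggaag
Rpl26: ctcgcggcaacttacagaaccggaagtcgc
Rpl41: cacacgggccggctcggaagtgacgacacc
Rpl4: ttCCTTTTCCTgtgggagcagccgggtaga
Rpl22: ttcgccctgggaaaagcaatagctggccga
Rpl14: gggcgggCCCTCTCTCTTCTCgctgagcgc
Rps15a: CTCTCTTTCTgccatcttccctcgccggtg
Rpl7l1: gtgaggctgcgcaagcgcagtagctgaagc
A run is present in Rps21 and Rpl31 of the lowest and in Rpl4, Rpl14 and Rps15a of the highest. The longest runs of Rps21 and Rpl14 span the annotated start, whereas those of Rpl31, Rpl4 and Rps15a end before it. A shorter run, not in capitals, spans the start in Rpl31 (cctcccc) and begins at it in Rps15a (cttccctc).

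A promoter was found for 62 of the 81 members whose name holds. Such a run was searched on the sense strand in those 30 bases at any annotated start of a gene. Runs that ended before the start, which cannot be a TOP motif there, counted too. It was present in 36 of the 62 members (58.1%) and in 25.5% of all 27025 genes with a promoter. In the 300 bases of the promoter, searched on both strands, CCGGAAGT, a site of ETS-family factors, was present in 19.4% of members and 4.31% of all genes. GCCATNTT, the core of the YY1 site, was present in 19.4% and 6.96%, and GGGCGG, the Sp1 site, in 62.9% and 38.2%. TATAAA, the TATA box, was present in 11.3% of members and 15.7% of all genes. The search did not tell apart motifs that overlap each other. The median log2 change in the dentate gyrus was -0.29 for the 35 tested members with the run and -0.32 for the 25 without it, and in the knockout -0.09 and -0.11. Members with and without the run thus had nearly equal medians in both comparisons.

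Levels between genes were compared per length, as CPM per kilobase of the shortest transcript that M21 marks as principal (271 to 3706 bases, median 729). Over the 7 libraries the median member above 5 CPM stood at 205 CPM per kilobase. The highest was Rplp1, an acidic protein of the stalk that recruits elongation factors, at 708 CPM per kilobase. It was followed by Rpl41, the smallest ribosomal protein (417), Rps15, which lies at the decoding site (412), Rps29 (411) and Rps2 (405). The SD over the 3 wild-type libraries was 15.9, 12.4, 8.43 and 21.7 CPM per kilobase for these 4, so neighbours in this order do not differ beyond their spread. The order holds for the gene table only. In wild-type Ammon's horn Rps2 stood at 430 CPM in the gene table and at 242 CPM in counts summed over exon bins. Rps21 stood at 148 and 477 CPM in the same order. At the other end stood Rpl10l at 0, Rpl39l at 0.153, Rpl3l at 0.177, Rps27l at 13.1 and Rps20 at 24.0 CPM per kilobase. The only coding M21 transcript of Rps20 has 3706 bases, of which 3136 are a stretch of the 3' UTR that took under 3% of its exon reads.

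**Figure D1:**
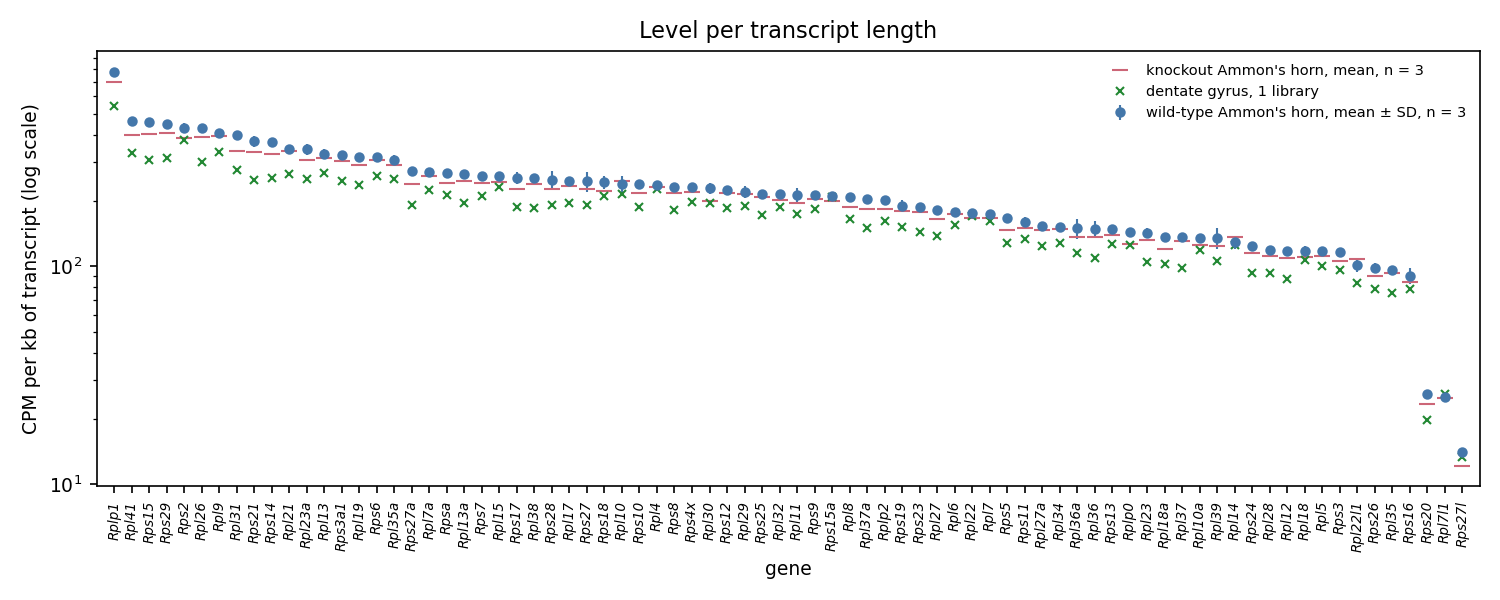
Level of each member with an M21 length and above 5 CPM, in CPM per kilobase of transcript on a log axis: mean ± SD of 3 wild-type Ammon's horn libraries (circles), mean of 3 knockout libraries (bars) and the dentate gyrus library (crosses). Rplp1 stands highest, Rps20, Rpl7l1 and Rps27l lowest, and nearly all crosses lie below the circles.

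Tissue-restricted copies of ribosomal protein genes were near the floor in hippocampus. Rpl10l, a testis-expressed retrogene of Rpl10, had 0 counts in each of the 7 libraries, which at a floor of 3 counts allows up to 0.0443 to 0.0597 CPM by counting error alone, whereas Rpl10 stood at 191 ± 15.5 CPM (SD, n = 3) in wild-type Ammon's horn. Rpl39l, a relative of Rpl39, lay between 0.0642 and 0.101 CPM where Rpl39 was at 82.6 ± 8.94 CPM. Rpl3l, the muscle form of the protein of the peptidyl-transferase centre, lay between 0.0965 and 0.631 CPM.

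Other paralogues were more widely expressed. Rpl22l1 stood at 55.9 ± 4.14 CPM (SD, n = 3) and its parent Rpl22 at 83.5 ± 2.86 CPM, and per kilobase over the 7 libraries they stood at 101 and 171. Rps27l, which p53 is known to induce, was at 7.02 ± 0.181 CPM against 84.7 ± 8.88 CPM for Rps27. Rpl7l1, a ribosome-assembly relative of Rpl7, was at 33.1 ± 0.933 CPM, and Rpl7 at 200, 201 and 202 CPM in the same libraries.

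Most ribosomal protein genes stood lower in the dentate gyrus library than in wild-type Ammon's horn. By edgeR's quasi-likelihood test with Benjamini-Hochberg adjustment over all 24486 genes tested, 51 of 83 members were lower at an adjusted p under 0.05 and 0 were higher. Over all genes tested 10.9% were called lower and 11.2% higher, and among 5131 other genes at the members' level 23.9% were called lower. The log2 fold change was negative for 81 of 83 members (51.2% of all genes), and its median was -0.33, a level 0.796 times that of Ammon's horn, against -0.01 for all genes. Only Rps3a3 and Rps21 were called lower by at least 1.5-fold (4.32% of all genes). Without the 4 misnamed records 48 of 79 were called, and the called record RPL24 gave -0.28 (SE 0.07, adjusted p = 0.0215). All members together took 1.28%, 1.36% and 1.28% of the wild-type Ammon's horn counts, 1.17% to 1.24% of the knockout counts and 1.12% of the dentate gyrus counts. CPM are shares of a library, so these values cannot tell fewer cells rich in ribosomal protein RNA from less of it per cell.

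**Figure D2:**
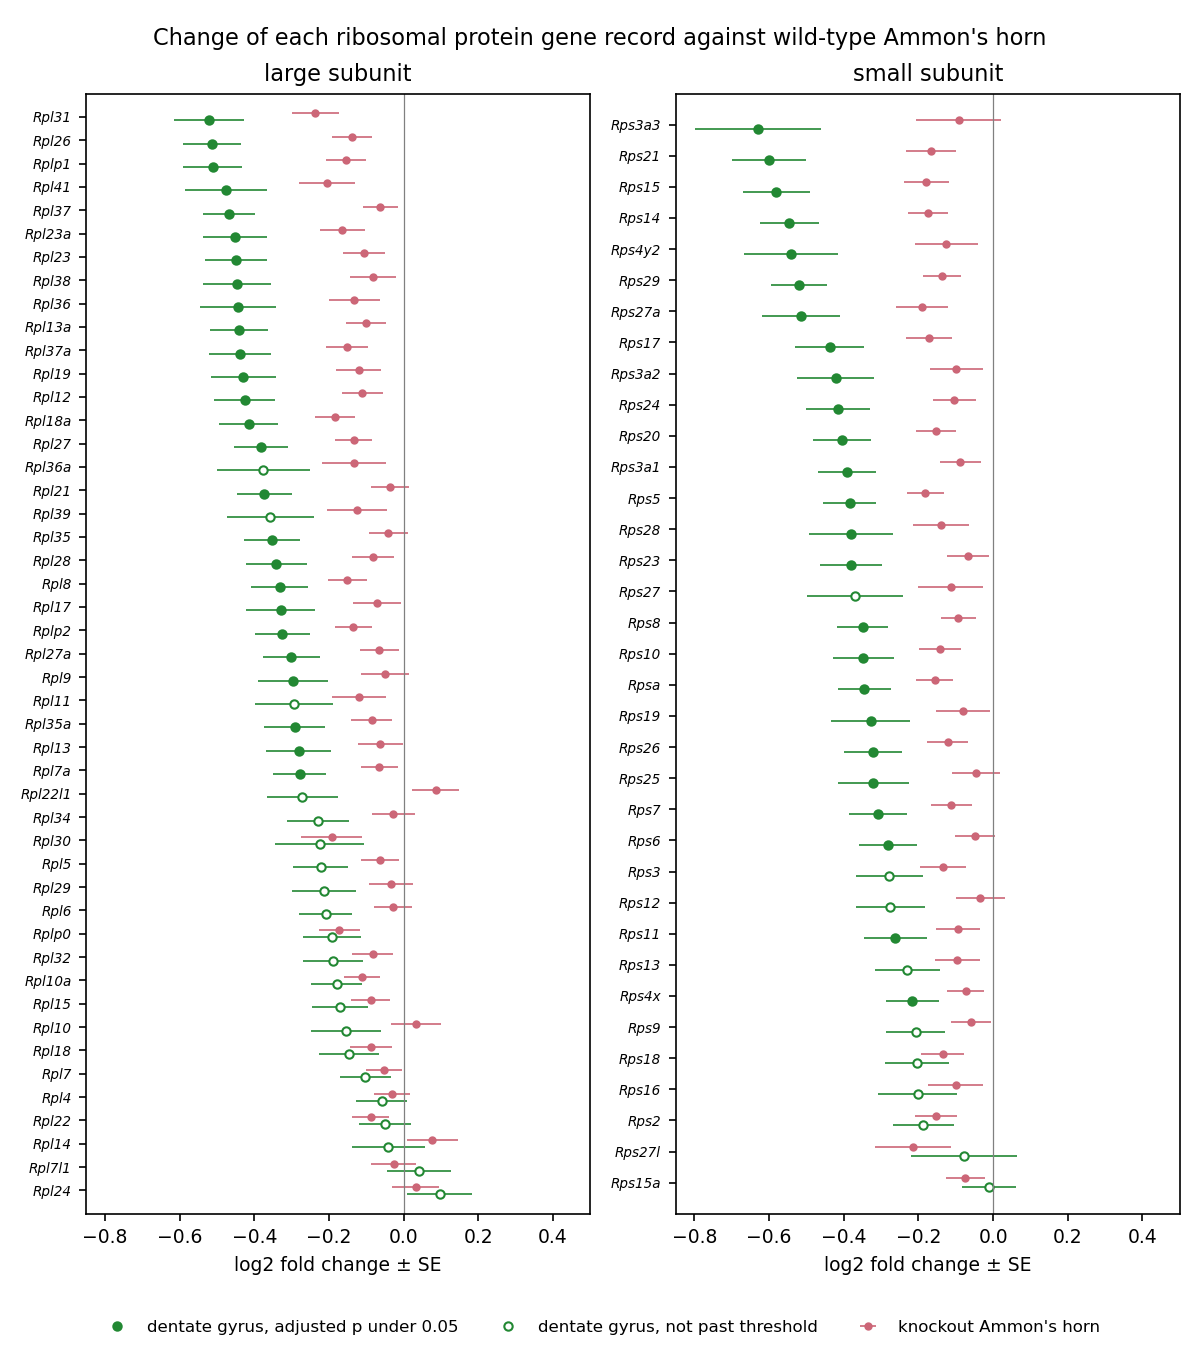
Log2 fold change ± SE of each tested member above 5 CPM against wild-type Ammon's horn (n = 3), in the dentate gyrus (1 library; filled where the adjusted p is under 0.05) and in the knockout (n = 3), by subunit and ordered by the dentate gyrus value. All small-subunit records and all but Rpl7l1 and the record named Rpl24 lie left of 0 in the dentate gyrus, and no knockout value passed the threshold.

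Among the small-subunit genes 25 of 35 were called lower and the median log2 fold change was -0.35. Of all genes tested 10.9% were called lower. Of other genes at the members' level it was 61.8% of 186 with short transcripts and 28.7% of 2514 with transcripts of 859 to 3706 bases. Rps21, a small protein on the outside of the subunit, stood at 139, 156 and 148 CPM in wild-type Ammon's horn, 144, 127 and 124 CPM in the knockout libraries and 97.4 CPM in dentate gyrus. The dentate gyrus lay below all 6 other libraries, and the log2 fold change was -0.60 (SE 0.10, adjusted p = 0.00183, edgeR). Rps15 stood at 221, 233 and 231 CPM, at 218, 191 and 195 CPM and at 153 CPM in the same order, a log2 fold change of -0.58 (SE 0.09, adjusted p = 0.0012) in the dentate gyrus. Rps14, which lies in the decoding region and is the gene lost in the 5q- syndrome, followed with -0.55 (SE 0.08, adjusted p = 0.000832). Rps29, a small zinc-finger protein, stood at 176, 177 and 171 CPM, at 164, 152 and 160 CPM and at 122 CPM, and had the smallest adjusted p of all members, 0.000778 (log2 fold change -0.52, SE 0.07). Its 3 groups did not overlap at all.

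Rps27a, made as a fusion with ubiquitin, was at 175, 179 and 168 CPM, at 169, 150 and 138 CPM and at 122 CPM, and its log2 fold change was -0.51 (SE 0.10, adjusted p = 0.00572). Rps24 (-0.42, SE 0.09) and Rps20 (-0.40, SE 0.08) were also called, with adjusted p of 0.00626 and 0.00409. Rpsa, the laminin-receptor precursor that doubles as a ribosomal protein, stood at 427, 433 and 428 CPM in wild-type Ammon's horn, 393, 374 and 388 CPM in the knockout libraries and 338 CPM in dentate gyrus, with no overlap between groups (log2 fold change -0.35, SE 0.07, adjusted p = 0.00587). At the other extreme Rps15a did not pass the test: 140, 131 and 130 CPM in wild-type Ammon's horn stood against 133 CPM in the dentate gyrus (-0.01, SE 0.07, adjusted p = 0.937). Of the copies that M21 calls pseudogenes, Rps4y2 (-0.54, SE 0.13), Rps3a2 (-0.42, SE 0.10) and Rps3a3 (-0.63, SE 0.17) were called. Reads of these copies and of their parents Rps4x and Rps3a1 cannot be told apart with certainty, and the parents were called too, at -0.22 (SE 0.07) and -0.39 (SE 0.08).

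Among the large-subunit genes 26 of 48 were called lower and the median was -0.31. The share called lower was 10.9% for all genes tested. For other genes at the members' level it was 61.8% with short transcripts and 28.7% with transcripts of 859 to 3706 bases. Rpl31, which sits at the rim of the exit tunnel, was at 189, 204 and 189 CPM in wild-type Ammon's horn, 175, 167 and 151 CPM in the knockout libraries and 135 CPM in dentate gyrus. It was the lowest of the called large-subunit genes at -0.52 (SE 0.09, adjusted p = 0.00285). Rpl26, known to bind the p53 messenger RNA, was at 237, 223 and 216 CPM, at 208, 201 and 205 CPM and at 158 CPM (-0.51, SE 0.08, adjusted p = 0.00108). Rpl41 (-0.48, SE 0.11) and Rpl37 (-0.47, SE 0.07) followed, with adjusted p of 0.0108 and 0.0009. For each of these 4 the dentate gyrus lay below all Ammon's horn libraries of both genotypes. They were named for their large falls, and the share over all genes was not counted.

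The 3 stalk genes did not move by the same amount. Rplp1 stood at 390, 391 and 379 CPM in wild-type Ammon's horn, 360, 329 and 353 CPM in the knockout libraries and 271 CPM in dentate gyrus, a log2 fold change of -0.51 (SE 0.08, adjusted p = 0.00115). Its partner Rplp2 gave -0.32 (SE 0.07, adjusted p = 0.01). Rplp0, which anchors both on the ribosome, gave -0.19 (SE 0.08, adjusted p = 0.109) and did not pass. The differences between the 3 were not tested.

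The large-subunit genes that stood highest were Rpl7l1 at 0.04 (SE 0.09), Rpl14 at -0.04 (SE 0.10), Rpl22 at -0.05 (SE 0.07) and Rpl4 at -0.06 (SE 0.07), besides the record named Rpl24 at 0.10 (SE 0.09); none passed the test. For Rpl4, which lines the exit tunnel, 366, 362 and 359 CPM in wild-type Ammon's horn stood against 348 CPM in the dentate gyrus. Rpl14 was at 121, 131 and 137 CPM against 126 CPM, inside the wild-type range. The lowest value of any member, -1.03 for Rpl3l, had an SE of 0.91 at under 1 CPM and says little.

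The dentate gyrus library was below all 3 wild-type Ammon's horn libraries for 78 of 83 members, as it was for 35.9% of all genes tested. Over the 82 members above 5 CPM it was the lowest of all 7 libraries for 73, a count that was not made over all genes. Set against the wild-type mean, the median member stood at -0.01, 0.03 and -0.01 (log2) in the wild-type libraries, at -0.03, -0.13 and -0.14 in knockout replicates 1, 2 and 3 and at -0.33 in the dentate gyrus. Members were steady between replicates, with a median coefficient of variation of 4.01% over the wild-type libraries against 4.89% for 5131 other genes at the same level.

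**Figure D3:**
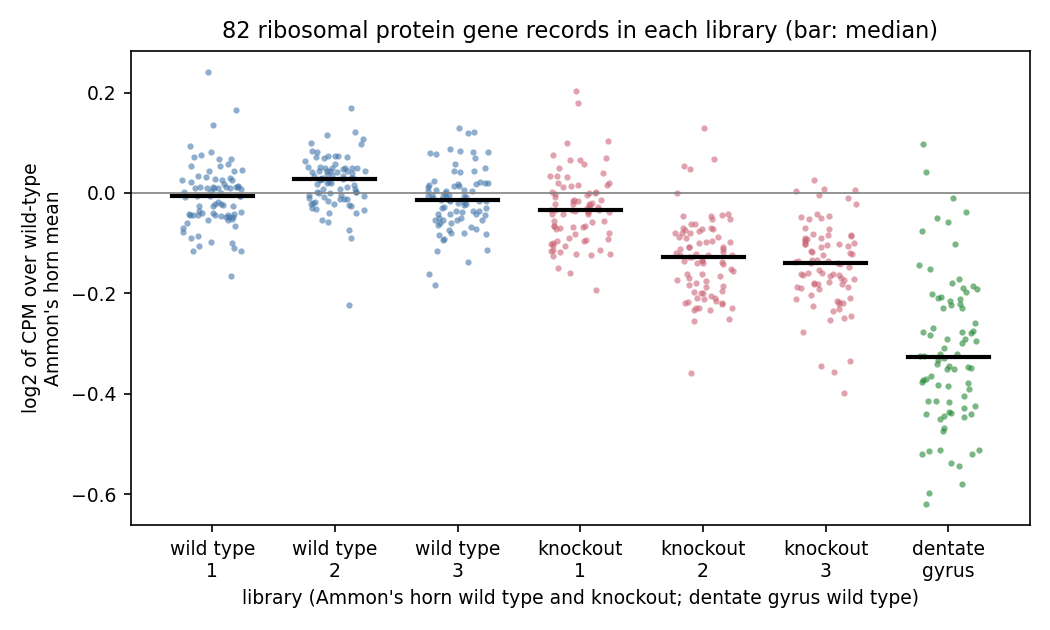
Level of 82 members above 5 CPM in each of the 7 libraries, as log2 of the CPM over the mean of the 3 wild-type Ammon's horn libraries; each point is a gene record and the bar is the median. The medians are near 0 in the wild-type libraries and in knockout replicate 1, at -0.13 and -0.14 in knockout replicates 2 and 3, and at -0.33 in the dentate gyrus.

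Other genes with short transcripts also stood lower, a comparison added after the values were seen. Non-members in the members' range of CPM were divided by transcript length. Among the 186 whose transcript was at most as long as those of the shorter members, the median log2 fold change in the dentate gyrus was -0.34, 82.8% were negative and 61.8% were called lower. It was -0.11 for 2514 genes of 859 to 3706 bases (28.7% called lower) and 0.08 for 2066 genes with longer transcripts (12.4%). Members with transcripts of 271 to 570, 577 to 851 and 860 to 3706 bases had medians of -0.38, -0.31 and -0.30, and 61.5%, 61.5% and 59.3% of them were called lower. The share of shorter members called lower was thus close to that of other short genes at their level. These values do not set the shorter members apart from such genes. Members of 860 to 3706 bases stood lower than the 2514 other genes of 859 to 3706 bases. Their medians were -0.30 and -0.11, and 59.3% and 28.7% were called lower, a difference that was not tested. In the knockout comparison the medians of the same 3 sets of non-members were -0.07 (78.0% negative, 0.0% called lower), -0.02 and 0.02. The part of transcript length in these changes was not tested.

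**Figure D4:**
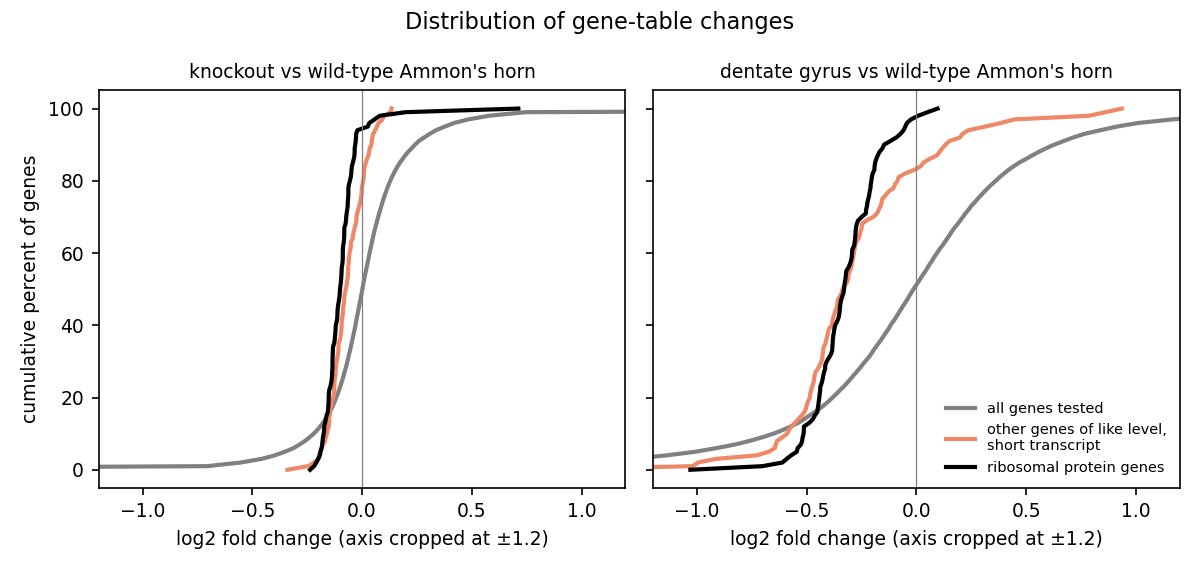
Cumulative distribution of the log2 fold change for all genes tested (grey), for 186 other genes of like CPM with short transcripts (orange) and for the 83 tested members (black), in the knockout (left) and the dentate gyrus (right). The members' medians are -0.10 and -0.33, close to the orange medians of -0.07 and -0.34 and left of the grey median, while in the lowest tail the black curve lies right of the grey one (5th percentile -0.19 against -0.35 in the knockout, -0.54 against -1.01 in the dentate gyrus).

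Marker lists of some cell types were lower in the dentate gyrus and others were higher. Over all genes tested 10.9% were called lower there and 11.2% higher, and 0.00876% were called lower in the knockout. The 10 oligodendrocyte markers summed to between 4498 and 4664 CPM in wild-type Ammon's horn, between 3853 and 4117 CPM in the knockout and 1576 CPM in the dentate gyrus, and 10 of 10 were called lower there and 1 in the knockout. The 10 microglia markers summed to between 503 and 557 CPM, between 475 and 493 CPM and 456 CPM, with 4 called lower in the dentate gyrus. The 8 astrocyte markers, at 3293 to 3991, 3450 to 3722 and 4096 CPM, had none called. The 6 CA1 pyramidal markers summed to between 747 and 779 CPM in wild-type Ammon's horn libraries, between 690.3 and 726 CPM in knockout libraries and 97.4 CPM in dentate gyrus, with 6 of 6 called lower there (median -3.02). The 6 interneuron markers summed to between 486 and 563 CPM, between 563 and 594 CPM and 408 CPM, with 4 of 6 called lower in dentate gyrus (median -0.71). No marker of these 5 lists was at 0 in any library. Of 7 dentate granule markers 6 were called higher in the dentate gyrus and 1 lower (median 2.79). Of 6 adult neurogenesis markers 5 were called higher (median 1.69), and of 12 choroid plexus markers 0 were called (median 0.78). Of 7 endothelial and mural markers 2 were called lower, and of 6 CA2 and CA3 pyramidal markers 1 was lower and 1 higher. The part of these cell types in the members' levels was not tested.

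In the knockout no ribosomal protein gene was called. The same test on the 6 Ammon's horn libraries found 0 of 83 members lower and 0 higher at an adjusted p under 0.05; over all 22830 genes tested 0.00876% were called lower and 0.0657% higher. At an unadjusted p under 0.05, 26 of 83 members were lower and 0 higher, and 3.84% of all genes were lower. The log2 fold change was negative for 78 of 83 members (49.5% of all genes), with a median of -0.10, a level 0.933 times that of the wild type, against 0.00 for all genes. All 3 knockout libraries lay below all 3 wild-type libraries for 30 of 83 members (6.44% of all genes) and above them for 0 (6.81%). All 35 small-subunit records were negative, with a median of -0.11, and 43 of 48 large-subunit records, with a median of -0.09. DESeq2 called 1 member, Rpl31, and limma-voom called 0.

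The knockout replicates were not alike. Replicate 1 was the highest of its group for 70 of the 82 members above 5 CPM; the share over all genes was not counted. Without it the median over members was -0.14, and without replicate 3 it was -0.08; with replicates 1 and 3, the libraries rich in choroid plexus markers, both left out it was -0.13. The choroid plexus markers summed to 1161, 146 and 1135 CPM in replicates 1, 2 and 3, and their part in the members' levels was not tested. Mitochondrial genes took 11.1% to 14.1% of counts in the knockout and 10.4% to 10.9% in the wild type, and with those genes left out the median stayed at -0.10.

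Rpl31 had the lowest knockout value. All 3 of its wild-type libraries, whose values stand with the large-subunit genes, lay higher than its knockout libraries, and the log2 fold change was -0.24 (SE 0.06, adjusted p = 0.373, edgeR), the smallest adjusted p among members. Next were Rps27l (-0.21, SE 0.10), Rpl41 (-0.20, SE 0.07), Rpl30 (-0.19, SE 0.08) and Rps27a (-0.19, SE 0.07), none past the threshold. Rpl30, a protein that in yeast represses the splicing of its own transcript, was at 134, 134 and 121 CPM in the wild type and at 116, 126 and 98.4 CPM in the knockout, so its groups overlapped. Rpsa differed by -0.16 (SE 0.05, adjusted p = 0.445), with no overlap.

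The members with the highest knockout values were Rpl3l (0.71, SE 0.52, at most 0.631 CPM), Rpl22l1 (0.09, SE 0.06), Rpl14 (0.08, SE 0.07), the record named Rpl24 (0.03, SE 0.06) and Rpl10 (0.03, SE 0.07). Rpl22l1, whose messenger RNA is a known target of repression by the Rpl22 protein, was at 56.3, 59.8 and 51.6 CPM in the wild type and at 63.2, 57.9 and 56.8 CPM in the knockout. Rpl22 itself was at 84.0, 86.0 and 80.4 CPM against 78.8, 80.8 and 75.8 CPM (-0.09, SE 0.05, adjusted p = 0.673). Both overlapped between genotypes. Both comparisons use the same wild-type libraries, so their values are set side by side only.

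Exon-bin counts, which leave out introns, gave close values. DEXSeq bins are the non-overlapping pieces of a gene's exons, and the members have 1154 of them. In 17 members the bins are joined with those of an overlapping gene, 13 of them only with a small nucleolar RNA, a kind of guide RNA that many introns of ribosomal protein genes encode. Summed over bins, 50 of 83 members were called lower in the dentate gyrus and 0 higher (14.5% and 14.8% of 16263 genes), 81 of 83 were negative (49.8% of all) and the median was -0.29. The largest called changes were those of Rps21 (-0.60, SE 0.09), Rps14 (-0.52, SE 0.07), Rps4y2 (-0.50, SE 0.15) and Rps29 (-0.50, SE 0.07). In the knockout 0 of 81 were called either way (0.0196% of 15288 genes lower, 0.0327% higher), 78 of 81 were negative (49.9% of all) and the median was -0.11. There 27 of 81 had no overlap and were lower (6.83% of all).

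The ratio of gene-table to bin reads also differed between members. Its median was 1.03 over the 82 members above 5 CPM, and it was below 1 for 34. A read that spans bins can be counted in each, and the part of such reads in these ratios was not tested. It was smallest for the record named Rpl24 (0.307), whose bins are joined with those of RPL24, and then for Rps21 (0.534), Rpl13a (0.612), Rpl36a (0.662) and Rpl18 (0.676). It was largest for the copies Rps3a2 (158) and Rps3a3 (152), nearly all of whose gene-table reads are therefore missing from their bins. Rpl23a followed, then Rpl35 (3.85) and Rps2 (2.99). In bin sums Rps3a3 gave 0.14 (SE 0.91), opposite to its gene-table value, and Rpl35 gave -0.22 (SE 0.11, adjusted p = 0.163) where its gene-table value of -0.35 (SE 0.08) was called. Rpl23 (-0.47, SE 0.08), Rps24 (-0.46, SE 0.11) and Rpl23a (-0.41, SE 0.14) were called in bins as in the gene table.

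Exon usage, the share of a gene's reads that each bin takes, was tested with edgeR's diffSpliceDGE. In the knockout 0 of 713 member bins were used more or less at an adjusted p under 0.05 (0.00241% and 0.000602% of all bins), and 1.68% had an unadjusted p under 0.05, as did 1.72% of all 166154 bins. Rps24, whose short last exons are known to be spliced differently between tissues, has 6 bins. Bin 5 took 7.26%, 7.82% and 7.72% of its reads in the wild-type Ammon's horn libraries, 7.82%, 8.44% and 7.85% in the knockout libraries and 8.12% in dentate gyrus. Its other bins likewise gave no call.

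In the dentate gyrus 4 of 723 member bins were used more and 0 less, against 0.186% and 0.0266% of all 169072 bins. Bin 15 of Rpl10a, a protein of the L1 stalk, took 0.691%, 0.989% and 0.813% of the gene's reads in the wild-type Ammon's horn libraries, 1.15%, 1.11% and 0.942% in the knockout libraries and 2.52% in dentate gyrus. Its log2 change relative to the gene was 1.57 (adjusted p = 2.0e-07), on 107 reads in the dentate gyrus and 28 to 57 elsewhere, and it passed under all 8 alternatives tried. Bin 12 of Rpl12 held at most 32 reads in any library and gave 1.89 (adjusted p = 0.0322). Bin 2 of Rps15a took 7.79% to 9.16% in the wild-type Ammon's horn libraries and 11.8% in the dentate gyrus library (0.48, adjusted p = 0.0489). Bin 1 of Rps20 took 2.10%, 1.62% and 1.57% in the wild-type Ammon's horn libraries and 2.95% in the dentate gyrus library (0.75, adjusted p = 0.0271).

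The Rps20 bin could be placed, since its gene model has the same version in M21 and rebuilding its bins gave 12, as many as in the files. Bin 1 spans chromosome 4, 3831334 to 3834469 (mm10, minus strand), 3136 bases that lie wholly past the coding sequence, in the 3' UTR. The other bins are named by number only. Leaving out any 1 library left 2 or 3 of the 4 calls. The Rpl12 bin was lost without wild-type Ammon's horn replicate 1 or 3 or knockout replicate 2 (adjusted p up to 0.118). The Rps20 bin was lost without wild-type replicate 2 or 3 or knockout replicate 3 (up to 0.169), and the Rps15a bin without wild-type replicate 1 or 2 or any knockout library (up to 0.377).

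**Figure D5:**
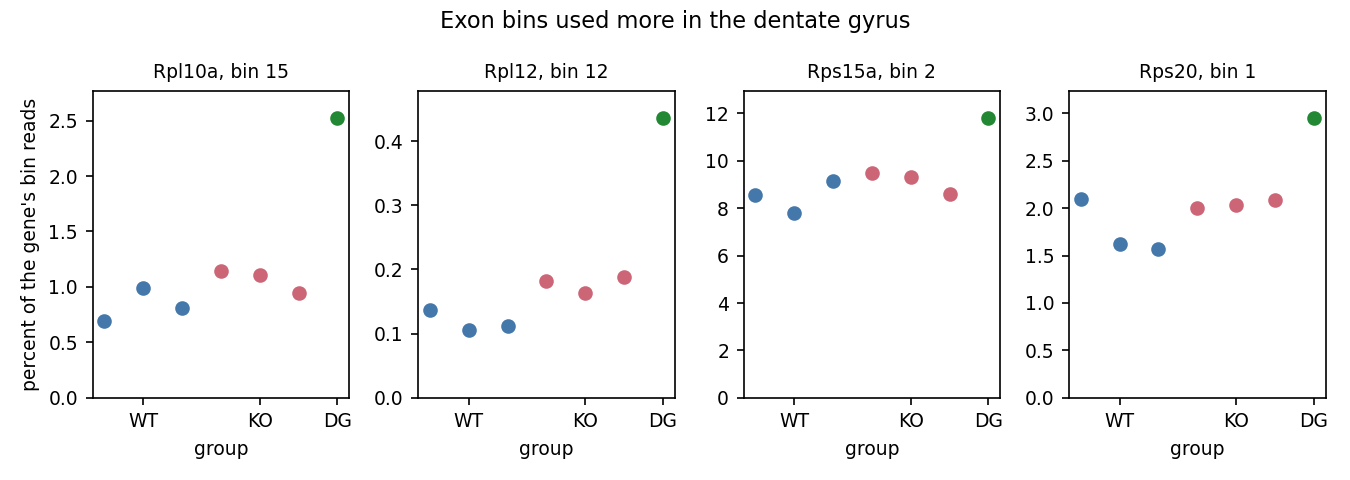
Share of the gene's exon-bin reads, in percent on axes from 0, taken by the 4 member bins called in the dentate gyrus; each point is 1 library of wild-type Ammon's horn (WT), knockout Ammon's horn (KO) or dentate gyrus (DG). In each panel the dentate gyrus library is the highest, 2.52% for bin 15 of Rpl10a against at most 1.15% elsewhere.

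Some ribosomal protein genes have names that the rule does not take in. Fau, the fusion that yields a small-subunit protein, stood at 127 ± 5.77 CPM in wild-type Ammon's horn, 118 ± 8.41 CPM in the knockout libraries (SD, n = 3 each) and 95.8 CPM in dentate gyrus, where it was called lower at -0.41 (SE 0.09, adjusted p = 0.00839, edgeR). Rpl36al, a relative of Rpl36a, was called lower there too (-0.46, SE 0.08), and Gnb2l1, the scaffold protein RACK1, was not (-0.09, SE 0.07). In the knockout the 3 genes gave -0.12 (SE 0.06), -0.11 (SE 0.06) and -0.13 (SE 0.05) in that order, and none was called.

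The lists of the wider translation machinery are read against all genes tested in the dentate gyrus, of which 10.9% were called lower and 11.2% higher, and against genes at the members' level, of which 23.9% were called lower. No gene of these lists was called in the knockout by edgeR. Of 76 mitochondrial ribosomal proteins 14 were called lower and 0 higher (median -0.17), among them Mrps12 (-0.65, SE 0.10) and Mrpl12 (-0.53, SE 0.09). Of 20 elongation factors and other genes with TOP messenger RNAs 5 were lower and 1 higher: Eef1b2 (-0.42, SE 0.08), Tpt1, Eif3h, Hnrnpa1 and Eef1a1, which delivers tRNAs to the ribosome (-0.20, SE 0.06), fell, and the intermediate filament gene Vim rose (0.25, SE 0.08). Of 47 initiation factors 7 were lower and 0 higher, and Eif3h stands in both lists. No list was tested against these shares, and none is set apart from them here.

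Of 49 ribosome biogenesis genes 6 were lower and 5 higher, shares close to the 10.9% and 11.2% of all genes, with a median of 0.02. Nhp2, of the pseudouridylation complex, fell (-0.68, SE 0.12), while Polr1e, a subunit of RNA polymerase I, rose (0.67, SE 0.13). Of 23 records of mTOR and TOP regulators 2 were lower and 6 higher, beside the same 10.9% and 11.2% of all genes, with a median of 0.18. Tia1, which binds TOP messenger RNAs in stress, rose at 1.19 (SE 0.15), and Rps6kb1, the kinase of ribosomal protein S6, at 0.42 (SE 0.08), while Rheb, the activator of mTOR, fell (-0.35, SE 0.08). Of 7 host genes of small nucleolar RNAs 1 was higher, Snhg1. No difference between the lists and the members was tested.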

How the data were processed

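The authors deposited raw counts, per the file headers: a table of reads per gene record with GENCODE M2 identifiers, in which introns count too, and a file per library of reads per DEXSeq exon bin. Per the submitters' processing notes the build was mm10 and the tools were bedtools 2.17.0, TopHat2 2.0.8b, DESeq2 1.0.19 and Trim Galore 0.3.5, with no roles given; strand handling and the treatment of reads with several matches are not given in the sources used here. That matters here, since 197 records are pseudogenes named after ribosomal proteins.

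All genes were tested with edgeR 4.0.16 in R 4.3.3 (TMM, filterByExpr, quasi-likelihood F test, Benjamini-Hochberg over all genes) at an adjusted p under 0.05, and member rows were then read out. The knockout fit used 6 libraries, the dentate gyrus fit all 7. Levels are TMM-scaled CPM. Exon usage was tested with diffSpliceDGE on bins that reached 10 reads in 3 or more libraries. DESeq2 1.42.0, limma 3.58.1, RLE scaling, no filter, left-out libraries and scalings without mitochondrial genes or members were alternatives. The scripts were tested on simulated data. Named were the 12 largest called changes, the 5 highest and lowest changes, levels and ratios, paralogues with their parents, stalk genes, Rpsa, genes with called bins and genes whose sequences are shown. The members and lists were chosen with earlier results of these data known. Transcript lengths came from GENCODE M21 and promoters from RefSeq.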

Additional observations from a re-analysis of the deposited data

How the results depend on the processing

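Counts of called members varied between settings, but no setting called a member higher. In the dentate gyrus the main fits called 51 members lower in the gene table and 50 in bin sums. In the dentate gyrus the gene table gave 42 (4 wild-type libraries only) to 61 (DESeq2) members lower and 0 higher, and 45 to 54 with a library left out; bin sums gave 36 to 54 with a library left out. Of 21 named members called there, 18 passed in the same direction under all 14 alternatives; the others, Rps3a2, Rps3a3 and Rpl35, did not in bin sums, where Rps3a3 was reversed at 0.1361. In the knockout DESeq2 called 1 member lower in the gene table (Rpl31, adjusted p = 0.0442) and bin sums without the low-count filter called 1 (Rpl30, adjusted p = 0.0195). Leaving out 1 library moved the called member bins in the dentate gyrus from 4 to between 2 and 3. Leaving out the 4 records that M21 names otherwise was chosen after seeing the data. No paired analysis was possible because the labels give no replicate numbers shared between groups.

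Depth and replicate number limit small changes. In simulated counts of 22754 genes for the knockout comparison the test recovered 14.0% of 1.2-fold and 70.0% of 1.5-fold changes, and in 24350 genes for the dentate gyrus comparison 0% and 38.0%. Recovery was not tested for genes at the members' level alone, so these shares are not a detection limit for the members. In the knockout comparison the median SE of the log2 fold change was 0.0566 for members and 0.109 for all genes tested. In the dentate gyrus comparison it was 0.0825 and 0.165. In the gene table the knockout values of the members are smaller than 1.2-fold for all but Rpl3l. The dentate gyrus result rests on 1 library, so region and library cannot be told apart.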
